A study of Homo sapiens with 8 samples.

Results

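The respiratory chain and ATP synthase genes were taken as the nuclear genes for subunits of complexes I to V, chosen by symbol from the annotation of the array: NDUFA, NDUFB, NDUFC, NDUFS and NDUFV genes, SDH genes, UQCR genes with CYC1, COX4 to COX8 genes, and ATP5 genes, with assembly factors left out. Of 54675 probe sets, 157 matched a single such symbol, and they held 82 of 19775 symbols. Of these, 77 were protein-coding genes (151 probe sets), 2 were pseudogenes and 3 were long noncoding RNAs beside a subunit gene. Each gene was read from its brightest probe set, and 72 of the 77 had a mean above 7.43, the median log2 signal of the array, and were tested: 32 of complex I, 3 of complex II, 7 of complex III, 13 of complex IV and 17 of complex V. The 5 below it were ATP5MF, COX6A2, COX7A1, COX7B2 and COX8C, with means of 6.51, 7.0, 7.17, 6.56 and 5.31. Probe sets that match several symbols were not members, and some subunits were not analysed here for that reason.

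The samples were HepG2 cells, a human hepatocellular carcinoma line, held in serum-free medium with 3 µM quercetin or without it for 2, 4, 12 and 24 h. Quercetin is a plant flavonol. All cells had been starved of serum beforehand, for a length on which the series text and the sample labels differ. Gene expression was measured on 8 Affymetrix arrays, 1 per treatment and time, so 4 quercetin and 4 control arrays. No treatment and time had a replicate, and all arrays come from 1 cell line. P-values for quercetin and for time therefore rest on the same residual. It measures how the quercetin difference varied over the 4 times, that is, how changes over time differed between the 2 treatments. All 10 hepatocyte markers measured were above the filter, with means from 11.46 to 15.09, whereas 2 of 4 leukocyte, 4 of 5 fibroblast and 2 of 5 endothelial markers measured were above it, at means of at most 9.40.

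Complexes I to IV pass electrons from NADH and succinate to oxygen and pump protons across the inner mitochondrial membrane, complex II being the one that pumps none, and complex V uses the proton gradient to make ATP. Most subunits are encoded in the nucleus and a few on mitochondrial DNA, so both sets are needed for assembly. In many cell types the nuclear genes are transcribed under NRF1, ETS-family factors such as GABPA, YY1 and ERR receptors, with PGC-1alpha (PPARGC1A) as a coactivator. HepG2 cells in glucose-rich medium make much of their ATP by glycolysis.

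Promoters carried the letters known for these factors. RefSeq windows (GRCh38.p14) from 250 bases before to 50 after the annotated start were matched for 65 of the 77 genes, and motifs were searched on both strands. The NRF1 motif (GCGCA and GCGC around any 1 base) was in 16 of the 65 (24.6%), against 8.57% of windows of all coding genes. The ETS motif CCGGAAG was in 18 (27.7%, against 14.2%), the YY1 motif AAGATGG in 15 (23.1%, against 6.40%) and the ERR half-site AAGGTCA in 8 (12.3%, against 3.13%). The GC box GGGCGG was in 40 (61.5%, against 58.5%), and the antioxidant response element TGACNNNGC in 10 (15.4%, against 14.3%). NRF1, ETS or YY1 letters were in 38 of the 65 windows (58.5%, against 25.6% of coding genes). No match of 1 of these 3 motifs overlapped a match of another. A match describes letters and does not show binding. These stretches come from genes of complexes II to V whose values follow, with NRF1 and ETS matches in capitals, all read 5′ to 3′ on the plus strand. They are SDHA at chr5:218140-218319, SDHD at chr11:112086753-112086872, ATP5F1C at chr10:7788117-7788176, UQCRQ at chr5:132866582-132866641 and COX8A at chr11:63974560-63974619. SDHA holds 4 copies of the same NRF1 match, SDHD an NRF1 and an ETS match, and UQCRQ and COX8A an ETS match on opposite strands.
SDHA: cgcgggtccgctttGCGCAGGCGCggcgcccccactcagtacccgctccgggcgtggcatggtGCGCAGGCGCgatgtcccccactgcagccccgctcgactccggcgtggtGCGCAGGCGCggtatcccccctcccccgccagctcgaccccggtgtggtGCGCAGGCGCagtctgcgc
SDHD: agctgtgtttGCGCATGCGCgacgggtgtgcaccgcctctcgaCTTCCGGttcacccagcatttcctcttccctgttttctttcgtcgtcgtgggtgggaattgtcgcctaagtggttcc
ATP5F1C: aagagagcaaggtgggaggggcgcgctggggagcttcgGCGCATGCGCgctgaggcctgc
UQCRQ: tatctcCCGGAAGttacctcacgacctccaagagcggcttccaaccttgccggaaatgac
COX8A: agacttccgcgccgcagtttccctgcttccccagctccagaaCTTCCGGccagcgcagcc

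Arrays differed in ways other than the groups. The mean 18S rRNA signal was 12.01 in the quercetin array against 8.57 in the control array (2 h), 11.62 against 11.52 (4 h), 7.29 against 7.35 (12 h), and 9.16 against 9.82 (24 h). The mean of 18 spike-in control probe sets was 12.11 against 11.24 (2 h), 11.945 against 11.995 (4 h), 11.35 against 11.19 (12 h), and 11.83 against 12.01 (24 h). The spread of log2 values on an array (SD) was 1.90 and 1.95 in the quercetin and control arrays at 24 h, and 1.74 in both arrays (4 h). The 3′ minus 5′ difference of control probe sets, which moves with RNA integrity, was 0.42 with quercetin and 0.41 in control at 24 h and 0.61 in both at 4 h for GAPDH. For ACTB it was 1.39 and 1.36 at 24 h, 1.17 and 1.12 at 4 h, and 0.88 with quercetin and 1.40 in control at 12 h. The part of these differences in the results below was not tested, but values after rescaling the arrays to a shared distribution are given beside the results they change. In whole cultures, less RNA per cell and fewer expressing cells cannot be told apart.

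The first question was whether quercetin changed these genes. No respiratory chain gene differed between quercetin and control over the 4 times (0 of 72, limma with Benjamini-Hochberg adjustment), as for all genes tested (0 of 13298, 0.0% called). At an unadjusted p under 0.05 the counts were 0 of 72 and 785 of 13298. The lowest adjusted p among the 72 was 0.848, for NDUFA5, an accessory subunit in the matrix arm of complex I, whose quercetin difference was -0.23 ± 0.11 (SE) on the log2 scale. Mean differences over the times lay between -0.23 and 0.17, and their median was -0.02, beside -0.03 for all genes tested.

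At single times, 1 quercetin array is set against 1 control array, and the values are a description. The median difference of the 72 genes was -0.04 (2 h), -0.04 (4 h), 0.07 (12 h) and -0.09 (24 h), beside -0.06, -0.02, 0.05 and -0.10 for all genes tested. The 72 genes and all genes had the same sign at every time as deposited. After loess the medians of the 72 were 0.115, 0.01, -0.08 and -0.01 in the same order, and after quantile normalization 0.07, 0.01, -0.11 and -0.04, so the signs at 2, 4 and 12 h turned. A difference of at least 0.5 was reached by 1 gene upward at 2 h, beside 4.81% of all genes, and by 1 upward at 12 h, beside 4.19%. None reached it upward at 4 h (1.5% of all genes) or 24 h (3.19%), or downward at 2, 4, 12 or 24 h (8.89%, 1.45%, 1.2% and 5.46% of all genes).

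**Figure D1:**
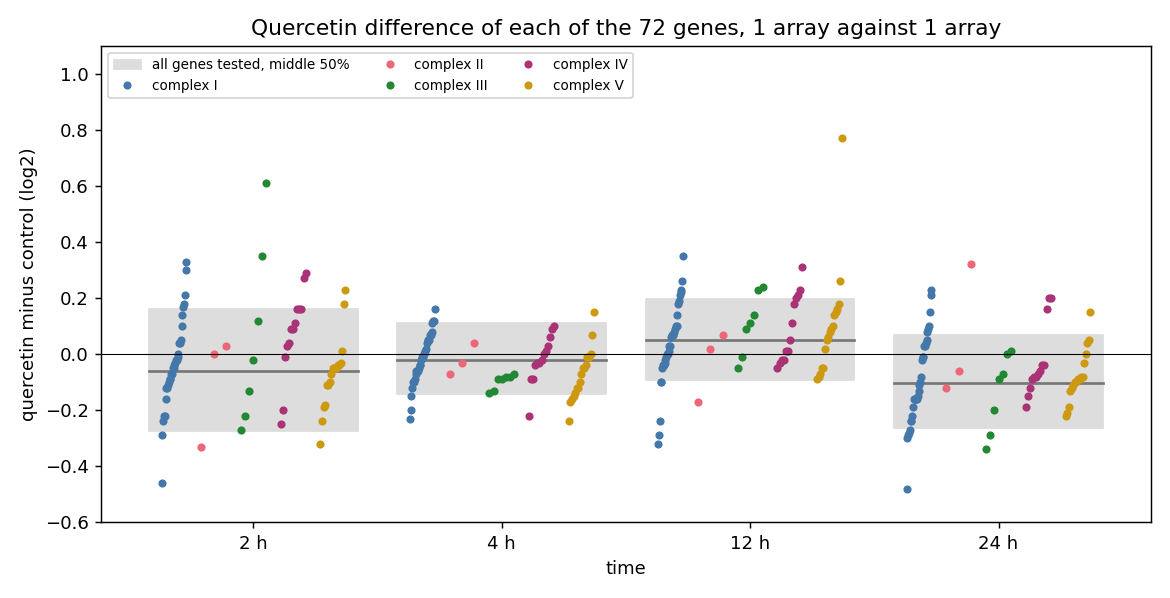
Difference in log2 signal, quercetin minus control, of each of the 72 genes at 2, 4, 12 and 24 h, coloured by complex, with 1 array against 1 array at each time. The grey band holds the middle 50% of all genes tested and the grey line is their median, and most of the 72 points lie within the band, with UQCR11 at 2 h and ATP5F1D at 12 h above 0.5.

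The gene past 0.5 at 2 h was UQCR11, a small subunit of complex III. Its log2 signal was 12.65 in the quercetin array against 12.05 in the control array (2 h), 12.27 against 12.36 (4 h), 12.36 against 12.23 (12 h), and 12.53 against 12.87 (24 h). Quercetin was the higher array at 2 and 12 h and the lower at 4 and 24 h, and the control array at 2 h was the lowest of the 8. Its second probe set gave 9.66 in quercetin and 9.34 in control at 2 h.

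The gene past 0.5 at 12 h was ATP5F1D, the delta subunit in the central stalk of the F1 head. It had 10.97 in the quercetin array against 11.15 in the control array (2 h), 10.97 in both arrays (4 h), 11.47 against 10.70 (12 h), and 11.11 against 11.22 (24 h). The 12 h arrays were the highest and the lowest of the 8, with the other 6 between 10.97 and 11.22. A second probe set gave 10.08 in quercetin and 9.68 in control at 12 h.

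The other wide gaps at single times stayed under 0.5 and fell in different genes. At 2 h the lowest differences were those of NDUFA5 (-0.46) and SDHC (-0.33), and UQCRQ followed UQCR11 with 0.35. At 4 h the range was narrowest, with ATP5MJ (-0.24) and NDUFS1 (-0.23) lowest and NDUFS6 (0.16) and ATP5MC1 (0.15) highest. At 12 h NDUFA5 (-0.32) and NDUFB8 (-0.29), both accessory subunits of complex I, were lowest, and NDUFB10 followed ATP5F1D with 0.35. At 24 h NDUFB7, an accessory subunit of the membrane arm of complex I, had 9.67 with quercetin against 10.15 in control, the lowest difference (-0.48), and SDHD (0.32) and NDUFB6 (0.23) had the highest.

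By complex, the signs differed between times. At 2 h, 10 of 13 complex IV genes were higher with quercetin (median 0.09), whereas 14 of 17 complex V genes were lower (median -0.05). At 4 h all 7 complex III genes (median -0.09) and 15 of 17 complex V genes (median -0.07) were lower. Of all genes, 41.9% were higher at 2 h and 45.7% at 4 h. At 12 h, 48 of the 72 genes were higher with quercetin, and at 24 h 53 of the 72 were lower. These shares run with those of all genes, of which 59.3% were higher at 12 h and 33.8% at 24 h. After loess and quantile normalization, 10 of 13 complex IV genes at 2 h were higher and all 7 complex III genes at 4 h lower. The median of the 72 genes at 2 h was also positive after both rescalings. Shares of all genes after these rescalings are not given here, so the rescaled counts are not read against them. The other counts moved after loess and quantile normalization. Of the 17 complex V genes, 13 and 8 were higher at 2 h and 10 were lower at 4 h in each. Of the 72, 19 and 18 were higher at 12 h, and 37 and 42 were lower at 24 h.

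Few genes kept a sign at every time as deposited. Quercetin was the higher array at all 4 times for 2 of the 72 genes (4.54% of all genes did so), and the lower for 10 (9.28% of all genes). The higher ones were NDUFB6, an accessory subunit of the membrane arm of complex I, with a mean difference of 0.16, and COX4I1, the common isoform of COX4, with 0.06. The lowest means among the 10 were those of NDUFA6 (-0.14), ATP5MJ (-0.14), a small membrane subunit of ATP synthase, and NDUFS4 (-0.11), an accessory subunit needed for a stable NADH-oxidising module. None passed the test, with adjusted p from 0.865 to 0.918 for these 5. NDUFA6 had 12.25 with quercetin against 12.35 in control (2 h), 11.91 against 11.98 (4 h), 12.13 against 12.22 (12 h), and 12.30 against 12.59 (24 h). The 4 h arrays were the lowest of the 8 in both treatments.

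Whether the quercetin difference changed over the course was tested by setting 12 and 24 h against 2 and 4 h. No respiratory chain gene was called (0 of 72, limma adjusted p = 1.0 in each), beside 37 genes up (0.278% of all) and 12 down (0.0902%) among 13298. At an unadjusted p under 0.05 the counts were 1 of 72 and 574 of 13298. After loess or quantile normalization 0 of 13298 were called. At single times, 6 of the 72 genes were lower with quercetin at both early and higher at both late times (5.76% of all genes), and 2 were the reverse (4.29%). When every probe set was fitted on its own, 1 was called, a dimmer probe set of COX5B, a nuclear subunit of cytochrome c oxidase. It had 9.54 with quercetin against 7.64 in control (2 h), 9.60 against 9.38 (4 h), 7.67 against 8.52 (12 h), and 8.58 against 9.25 (24 h). Its late minus early change was -1.82 ± 0.33 (SE, limma adjusted p = 0.000183). The sign of its difference turned between 4 and 12 h, and the widest gap was at 2 h. The control array at 2 h (7.64) lay below the other arrays of 2 and 4 h. Its 18S signal was also below theirs, and the part of 18S in these values was not tested. The brighter COX5B probe set lay between 12.95 and 13.24 in all 8 arrays and gave -0.09.

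More of these genes were called for time than for quercetin. In the limma F-test over the 4 times, 42 of the 72 genes were called, beside 38.1% of all genes. They were 19 of 32 in complex I, 2 of 3 in complex II, 4 of 7 in complex III, 7 of 13 in complex IV and 10 of 17 in complex V. After cyclic loess or quantile normalization of the arrays, 14 of the 72 were called in each case (19.4%), beside 28.9% and 28.0% of all genes.

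As deposited, the signal dipped at 4 h and peaked at 24 h. The median signal of the 72 genes was 12.23 in the quercetin array against 12.23 in the control array (2 h), 11.94 against 11.97 (4 h), 12.07 against 12.06 (12 h), and 12.29 against 12.41 (24 h). Among the 72, 46 were lowest at 4 h in both treatments (21.7% of all genes), 45 were highest at 24 h in both (34.7%) and 33 did both (14.4%). In 64 genes both 24 h arrays lay above both 4 h arrays, as in 49.9% of all genes. After loess 10 of the 72 were lowest at 4 h in both treatments (11.3% of all genes), 13 were highest at 24 h (21.9%) and 7 did both (6.04%). After quantile normalization 12, 9 and 4 did so, beside 12%, 19.4% and 5.99% of all genes. As deposited, every complex had its lowest median at 4 h in both treatments, and so did all genes tested, as the plot of complex medians shows.

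**Figure D2:**
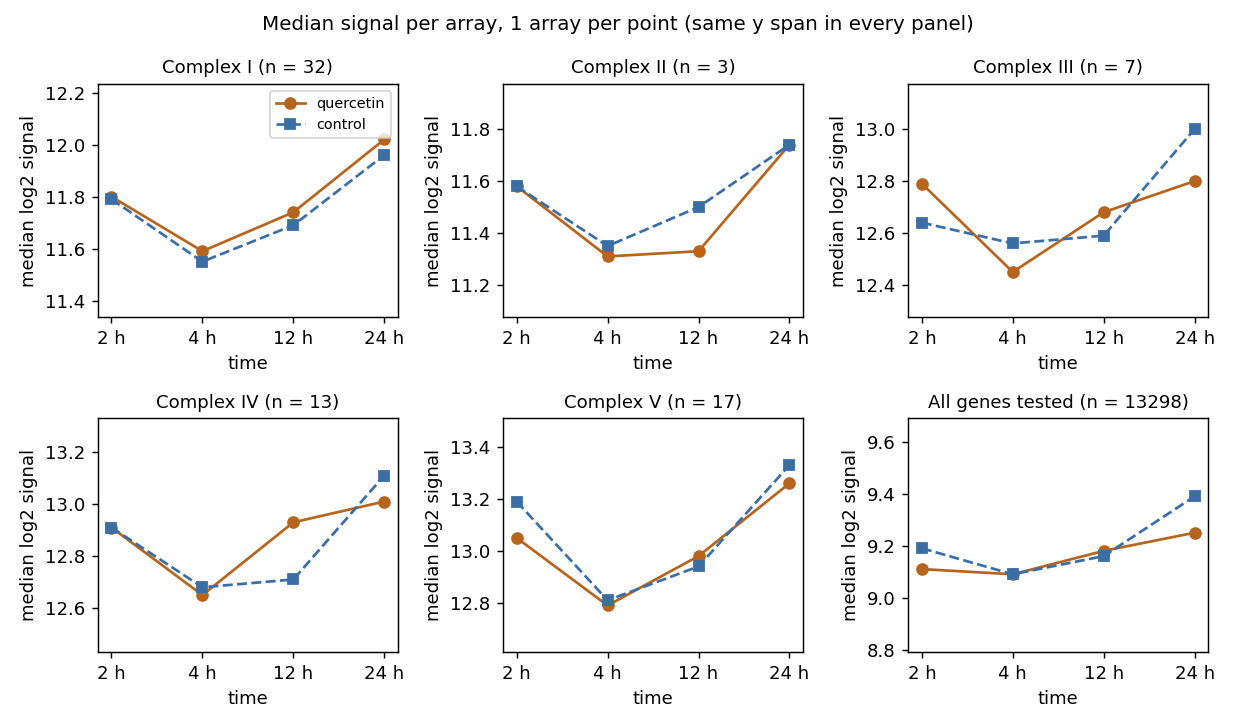
Median log2 signal of the genes of each complex, and of all genes tested, in each of the 8 arrays (values as deposited, 1 array per point, times spaced evenly, solid line quercetin, broken line control). In each complex the 4 h arrays lie below the 2 h and 24 h arrays of the same treatment, while the median of all genes tested moves less.

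Against 2 h, 7 respiratory chain genes rose at 24 h and none fell (limma adjusted p under 0.05 in 2302 genes up, 17.3% of all, and 529 down, 3.98%). The 7 were SDHC, NDUFS1, CYC1, ATP5F1C, ATP5PB, NDUFB5 and UQCRC2, so 2 in complex I, 1 in complex II, 2 in complex III, none in complex IV and 2 in complex V. The median 24 h minus 2 h difference of the 72 was 0.12 in quercetin and 0.20 in control cells, beside 0.08 and 0.13 for all genes, and became -0.10 and 0.02 after loess and -0.06 and -0.01 after quantile normalization. After cyclic loess 2 of the 72 were called up and 5 down, beside 10.9% and 7.2% of all genes. After quantile normalization 3 were called up and 4 down, beside 8.86% and 6.64%. The split over all genes moved too, with 81.3% of calls upward as deposited, 60.2% after loess and 57.2% after quantile normalization.

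SDHC, on chromosome 1, encodes a membrane anchor of succinate dehydrogenase that binds heme and ubiquinone. Its log2 signal was 11.62 with quercetin against 11.96 in control (2 h), 11.42 against 11.39 (4 h), 11.91 against 11.89 (12 h), and 12.37 against 12.49 (24 h). Both 24 h arrays lay above the other 6. It rose by 0.64 ± 0.14 (SE) from 2 to 24 h (limma adjusted p = 0.00203), and by 0.41 after loess and 0.40 after quantile normalization (adjusted p = 0.0123 and 0.0161). Without the quercetin array at 2 h the call was lost (adjusted p = 0.0761). Of its 5 probe sets above the filter, the changes from 4 to 24 h ran from -0.33 for a dim one to 1.22, and a gene-specific probe set gave -0.34 from 2 to 24 h.

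The other 2 complex II genes tested were not called against 2 h. SDHA, the flavoprotein that oxidises succinate, had 11.67 with quercetin against 11.74 in control (24 h) and 11.58 in both arrays (2 h). SDHD, the second membrane anchor, had 11.74 against 11.42 (24 h) and 11.49 against 11.47 (2 h). Their differences from 2 h were 0.12 ± 0.14 and 0.10 ± 0.15 (SE). Their promoters, printed above, hold NRF1 letters.

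ATP5PB and ATP5F1C were the genes called in ATP synthase. ATP5PB encodes the b subunit of the peripheral stalk, which holds the head still against the rotor. It had 13.04 with quercetin against 13.23 in control (2 h), 12.69 against 12.81 (4 h), 13.05 against 12.94 (12 h), and 13.58 against 13.66 (24 h). Both 24 h arrays lay above all others, and the difference from 2 h was 0.48 ± 0.11 (SE, limma adjusted p = 0.00318), 0.28 after loess and 0.34 after quantile normalization, called in each case. The call was lost without the quercetin array at 2 h or the control array at 24 h (adjusted p up to 0.0961).

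ATP5F1C encodes the gamma subunit, the rotating shaft of the F1 head. It had 13.47 with quercetin against 13.25 in control (2 h), 13.09 against 13.19 (4 h), 13.21 against 13.19 (12 h), and 13.79 against 13.90 (24 h). The 24 h arrays were again the highest, and the difference from 2 h was 0.48 ± 0.11 (SE, limma adjusted p = 0.00277). The call was lost after loess (0.29, adjusted p = 0.0669), and a gene-specific probe set near 8 gave -0.27. It was also lost without the control array at 2 h or at 24 h.

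CYC1, cytochrome c1, hands electrons of complex III to cytochrome c. It had 11.62 with quercetin against 11.89 in control (2 h), 11.36 against 11.51 (4 h), 12.05 against 11.81 (12 h), and 12.27 in both arrays (24 h). NDUFS1, the largest iron-sulfur subunit of complex I, had 11.04 and 11.20, 10.77 and 11.01, 11.12 and 10.86, and 11.72 and 11.63, quercetin and then control at each time. In both genes the 2 arrays at 24 h were the highest of the 8. Their differences from 2 h were 0.52 ± 0.14 and 0.55 ± 0.15 (SE, limma adjusted p = 0.0118 and 0.0139). Both calls were lost after loess and quantile normalization, where the differences lay between 0.26 and 0.32, and without the quercetin 2 h or either 24 h array.

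NDUFB5, an accessory subunit of the membrane arm of complex I, and UQCRC2, a core protein of complex III, differed from 2 h by 0.45 and 0.34 (limma adjusted p = 0.0195 and 0.0252). Neither was called after loess or quantile normalization, without the quercetin array at 2 h or without either 24 h array, and UQCRC2 also not without either 4 h array. NDUFB5 had 11.67 with quercetin against 11.79 in control (2 h), 11.30 against 11.36 (4 h), and 12.10 against 12.27 (24 h).

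At the intermediate times, 1 gene fell in each comparison with 2 h when all 8 arrays were used. Without either 12 h array, 26 of the 72 fell at 4 h (limma, beside 6.35% of all genes called without the control and 6.48% without the quercetin array), and without the quercetin array at 12 h 3 of the 72 fell at 12 h (4.56% of all genes). NDUFA5 fell by 0.75 ± 0.16 (SE) at 4 h (limma adjusted p = 0.0352, with 0.496% of all genes called down and 0.0376% up). It had 10.64 with quercetin against 11.11 in control (2 h), 10.03 against 10.22 (4 h), 10.79 against 11.11 (12 h), and 11.09 against 11.04 (24 h). The 4 h arrays were the lowest of the 8 in both treatments. The call did not hold after loess or quantile normalization, where the differences were -0.54 and -0.55 (adjusted p = 0.167 and 0.135), nor without the control array at 2 h or any of the 4 arrays at 4 and 24 h.

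ATP5F1B, the catalytic beta subunit, fell by 0.39 ± 0.11 (SE) at 12 h (limma adjusted p = 0.0451, with 1.32% of all genes called down and 1.68% up). It had 13.27 with quercetin against 13.26 in control (2 h), 12.97 against 13.02 (4 h), 12.95 against 12.79 (12 h), and 13.33 against 13.36 (24 h). The call did not hold under the other 3 scalings (adjusted p from 0.104 to 0.138) or without any array other than the quercetin array at 12 h.

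Since the lowest and the highest arrays were those of 4 and 24 h, these were also compared, a contrast chosen after the data were seen. At 24 h, 52 of the 72 genes were higher and 0 lower than at 4 h (limma adjusted p under 0.05, with 32.8% of all genes up and 9.45% down). They were 25 of 32 in complex I, 2 of 3 in complex II, 4 of 7 in complex III, 8 of 13 in complex IV and 13 of 17 in complex V. Within ATP synthase they were 4 of 5 of the F1 head, 3 of 4 of the peripheral stalk, 4 of 4 tested small membrane subunits, 1 of 3 of the c-ring and the inhibitor ATP5IF1. The median difference was 0.42, beside 0.19 for all genes tested, and in 17 genes the call held without any 1 array. Without the control array at 24 h, 23 of the 72 were called (31.9%, beside 24.1% of all genes). Without the quercetin or the control array at 4 h, 27 were called in each case (37.5%, beside 30.5% and 23.3%).

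This comparison depended on the scaling of the arrays. The median 24 h minus 4 h difference of the 72 genes was 0.40 with quercetin and 0.47 in control as deposited, 0.49 and 0.58 after median centring, -0.05 and -0.03 after loess, and -0.03 and 0.02 after quantile normalization. The medians of all genes were 0.15 and 0.23 as deposited, 0.24 and 0.35 after centring, -0.02 and -0.01 after loess, and -0.03 and -0.04 after quantile normalization. After loess 5 of the 72 were called up and 11 down, and after quantile normalization 7 up and 9 down, beside 17.2% of all genes up and 15.2% down after loess and 15.6% up and 15.5% down after quantile normalization. The share of upward calls over all genes was 77.6% as deposited, 53.1% after loess and 50.2% after quantile normalization. The sign differed between scalings in 41 of the 72 genes (56.9%, beside 26.5% of all genes). The 8095 genes above the 75th percentile of all probe sets had medians of 0.31 with quercetin and 0.43 in control as deposited, beside 0.40 and 0.48 for the 70 respiratory chain genes among them.

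**Figure D3:**
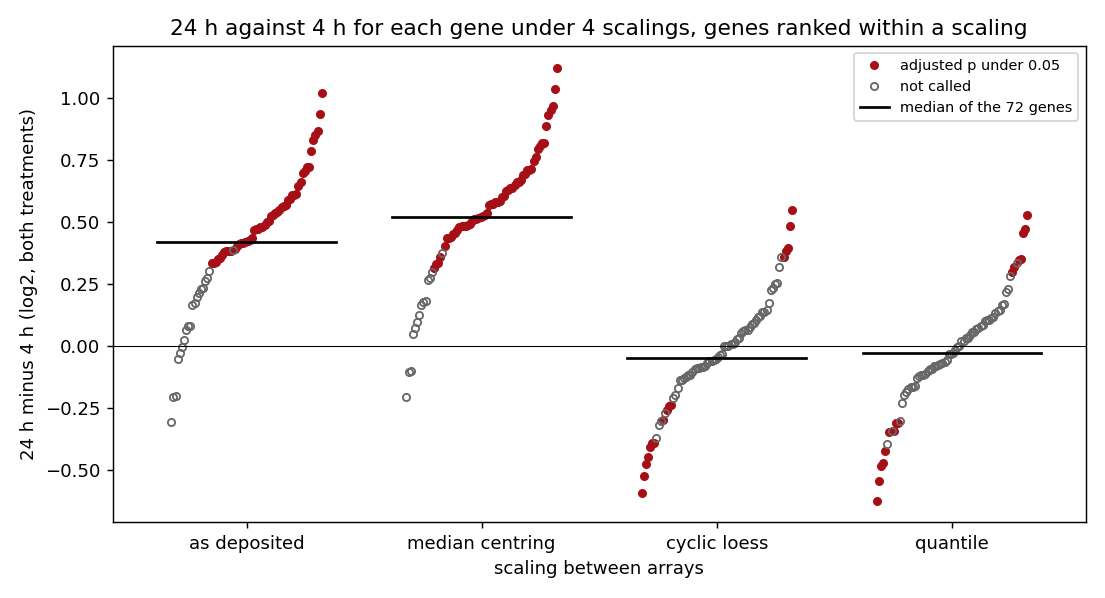
Difference at 24 h minus 4 h over both treatments (log2) for each of the 72 genes, ranked within each of 4 scalings of the arrays, with filled points at a limma adjusted p under 0.05 and black lines at the median of the 72 genes. The medians lie above 0 as deposited and after median centring and just below 0 after cyclic loess and quantile normalization.

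In 5 genes the rise from 4 to 24 h was called under all 4 scalings: SDHC, ATP5PB, CYC1, NDUFB5 and NDUFA5. They are 6.94% of the 72, beside 15.1% of all genes. SDHC differed by 1.02 ± 0.14 (SE) as deposited and by 0.53 after quantile normalization. ATP5PB differed by 0.87 ± 0.11 and 0.47, CYC1 by 0.83 ± 0.14 and 0.32, NDUFB5 by 0.85 ± 0.13 and 0.35, and NDUFA5 by 0.94 ± 0.16 and 0.46. All 5 calls also held without any 1 array as deposited, with adjusted p of at most 0.0118. They belong to complexes I, II, III and V, and no complex IV gene was among them.

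**Figure D4:**
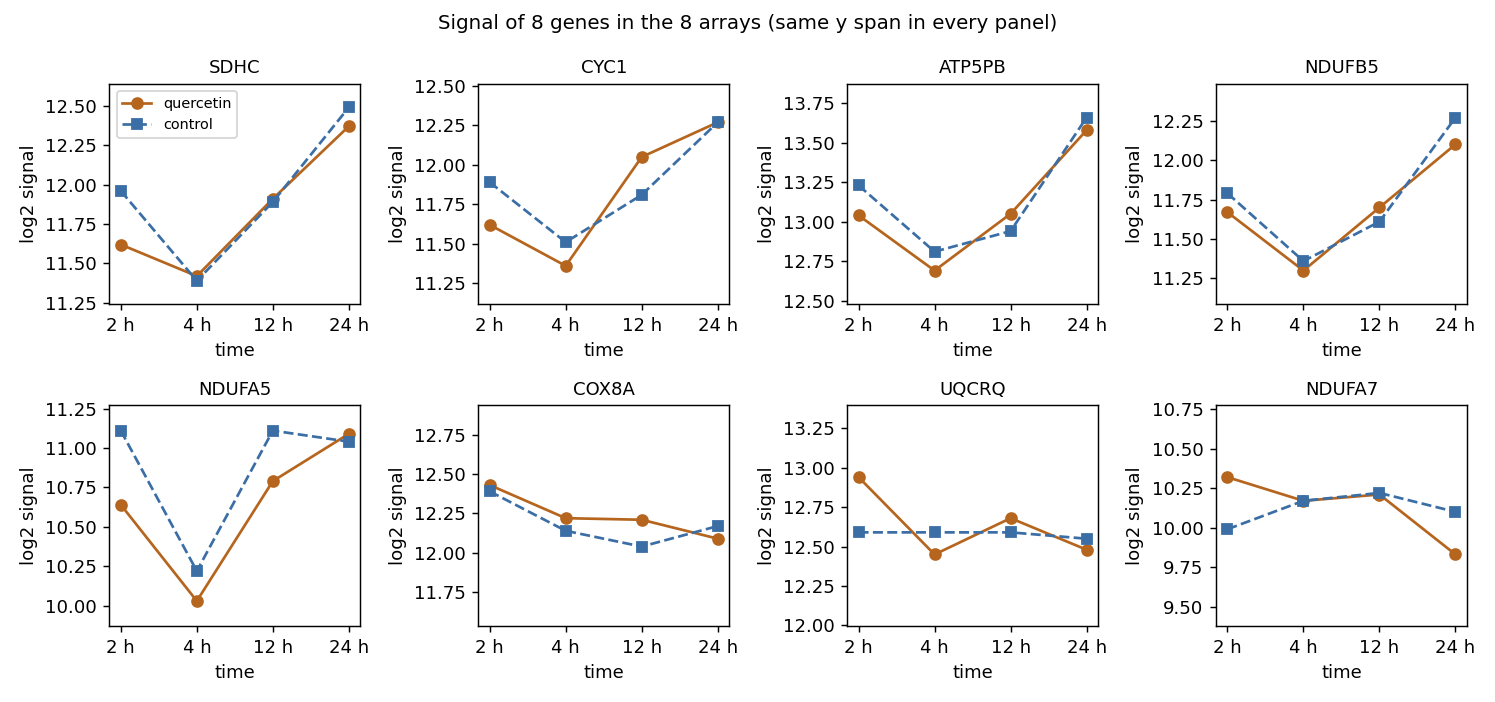
Log2 signal of 8 genes in the 8 arrays (times spaced evenly, solid line quercetin, broken line control, the same span on every y axis). SDHC, CYC1, ATP5PB, NDUFB5 and NDUFA5 are lowest at 4 h in both treatments, whereas COX8A, UQCRQ and NDUFA7 lie at 24 h close to or below their values at 4 h.

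A second set of 8 genes was not called higher at 24 h than at 4 h under any scaling. COX5B, COX8A, NDUFA7, NDUFB1, NDUFB10, NDUFV3, UQCR10 and UQCRQ were not called as deposited or after centring and were lower at 24 h than at 4 h after both loess and quantile normalization (limma adjusted p under 0.05). Of all genes, 6.62% had this pattern, beside 11.1% of the 72. COX8A, the common isoform of a small membrane subunit of complex IV, had 12.43 with quercetin against 12.39 in control (2 h), 12.22 against 12.14 (4 h), 12.21 against 12.04 (12 h), and 12.09 against 12.17 (24 h). Its 24 h minus 4 h difference was -0.05 as deposited, 0.05 after median centring and -0.55 after quantile normalization (adjusted p = 0.757, 0.795 and 0.000519). UQCRQ, a small subunit of complex III, had 12.48 against 12.55 (24 h) and 12.45 against 12.59 (4 h), a difference of -0.01 as deposited and -0.47 after quantile normalization. NDUFA7, an accessory subunit of complex I, had 9.83 against 10.10 (24 h) and 10.17 in both arrays (4 h), with -0.20 and -0.63. COX8A, UQCRQ and UQCR10 were also lower at 24 h than at 2 h after both rescalings, with differences from -0.51 to -0.31.

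Different probe sets of a gene did not always give the same sign. Of 28 genes with several probe sets above the filter, 17 had 1 sign for 24 h minus 4 h and 11 had 2 signs. For the mean quercetin difference 15 of the 28 had 1 sign.

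Several subunits of cytochrome c oxidase have tissue isoforms. The heart and muscle forms COX6A2 and COX7A1 and the testis forms COX7B2 and COX8C were below the filter. COX4I2, the isoform induced by low oxygen, was above it at a mean of 8.45 and lay between 8.25 and 8.65, and COX6B2, a testis form, lay between 7.89 and 8.20. Neither was called for quercetin or time. COX4I1 lay between 13.03 and 13.46, COX6A1 between 13.22 and 13.61, COX7A2 between 12.74 and 13.23 and COX7B between 12.12 and 12.86. COX7A2L, which takes part in joining complexes III and IV, rose by 0.61 from 4 to 24 h (limma adjusted p = 0.00147). The 3 genes of the c-ring encode the same mature protein, and ATP5MC2 rose by 0.37 (adjusted p = 0.0294), while ATP5MC1 and ATP5MC3 differed by 0.16 and 0.21 without a call. COX7A2L and ATP5MC2 were not called after loess or quantile normalization, while ATP5MC1 was lower after quantile normalization (-0.34, adjusted p = 0.0434) and ATP5MC3 after loess (-0.26, adjusted p = 0.0262). COXFA4, formerly NDUFA4, was not matched by the symbols used and lay between 12.92 and 13.22, and COXFA4L2, induced by low oxygen, was below the filter.

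Of 13 genes for subunits encoded on mitochondrial DNA 7 were measured, and 0 were called up and 1 down at 24 h against 4 h, with a median of -0.07. After loess 6 were called down, and after quantile normalization 2. The shares of all genes called down were 9.45% as deposited, 15.2% after loess and 15.5% after quantile normalization. COX3, a core subunit of complex IV, had 13.85 with quercetin against 13.81 in control (2 h), 13.81 against 13.75 (4 h), 13.62 against 13.46 (12 h), and 13.19 against 12.95 (24 h). It fell by 0.71 ± 0.10 (SE) from 4 to 24 h (limma adjusted p = 1.25e-05), and differed by -1.07 after quantile normalization and -1.18 after loess. COX1, COX2, ND4 and ATP6 lay between 15.03 and 15.31 in all 8 arrays, and ND2 between 14.19 and 14.76. The highest signal on any array lay between 15.12 and 15.31, so the 4 sit at the top of the measured range, where a rise may not show, and their values are no measure of stability. ND6, the gene on the other strand, had 9.71 with quercetin against 6.82 in control (2 h), 9.34 against 8.69 (4 h), 8.69 against 8.49 (12 h), and 8.47 against 9.47 (24 h), and was called for late against early quercetin difference (-2.17 ± 0.31, SE, adjusted p = 6.9e-09). The call was lost after loess (-2.16, adjusted p = 0.223) and quantile normalization (-2.17, adjusted p = 0.14). The 18S signal was likewise higher with quercetin at 2 h and lower at 24 h, and its part in the ND6 values was not tested.

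Of the regulators of mitochondrial gene expression, several changed over time. Of 17 tested, 9 rose and 0 fell from 4 to 24 h, 5 rose after loess and 4 after quantile normalization, and 0 were called for quercetin. The shares of all genes that rose were 32.8% as deposited, 17.2% after loess and 15.6% after quantile normalization. PPARGC1A had 8.84 with quercetin against 9.31 in control (2 h), 8.78 against 8.25 (4 h), 8.90 against 9.12 (12 h), and 10.34 against 10.40 (24 h). Both 24 h arrays lay above all others, and it rose by 1.30 ± 0.21 (SE) from 2 to 24 h (limma adjusted p = 0.000198), or 1.05 after quantile normalization (adjusted p = 0.00462). TFAM, which packages mitochondrial DNA and starts its transcription, had 9.94 against 10.37 (2 h), 9.86 against 10.20 (4 h), 10.57 against 10.59 (12 h), and 11.02 against 11.36 (24 h). It rose by 1.03 ± 0.16 from 2 to 24 h (adjusted p = 0.000154), or 0.74 after quantile normalization. TFB2M and TFB1M, partners in mitochondrial transcription and rRNA methylation, rose by 0.88 and 0.68 from 2 to 24 h, and both were also called under loess and quantile normalization. From 4 to 24 h they rose by 0.72 and 0.68 as deposited and were not called after those rescalings (adjusted p from 0.111 to 0.223). NRF1, ESRRA and PPARGC1B were not called from 4 to 24 h (0.17, 0.29 and 0.11). GABPA rose by 0.56 from 4 to 24 h (adjusted p = 0.0287), and was called after loess and quantile normalization (limma adjusted p = 0.0228 and 0.0294). YY1 rose by 0.74 as deposited (limma adjusted p = 0.000165). It was called after loess (0.265, adjusted p = 0.0413) and not after quantile normalization (0.241, adjusted p = 0.0556). MYC rose by 0.84 as deposited (adjusted p = 0.000241) and was not called after loess or quantile normalization.

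**Figure D5:**
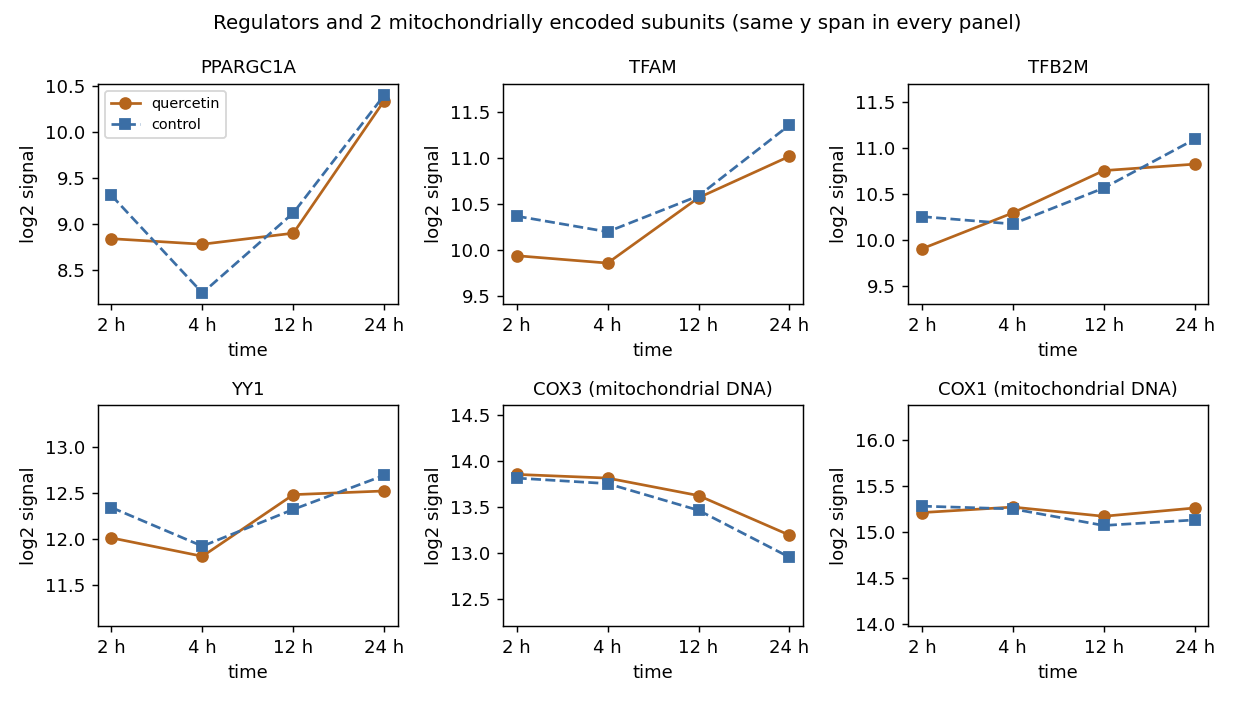
Log2 signal of 4 regulators and of 2 subunits encoded on mitochondrial DNA in the 8 arrays (times spaced evenly, solid line quercetin, broken line control, the same span on every y axis). PPARGC1A and TFAM are highest at 24 h in both treatments, COX3 is lowest there, and COX1 stays near 15.2, at the top of the measured range.

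Counts by promoter match are given as a description. As deposited, 12 of 15 tested genes with the NRF1 letters rose from 4 to 24 h (median 0.42). So did 11 of 18 with the ETS letters (median 0.38) and 13 of 15 with the YY1 letters (median 0.47). These stand beside 52 of 72 in all and 32.8% of all genes. Of the 72, 5 were called up after loess and 7 after quantile normalization. Counts by match after rescaling are not given here. Of the genes whose matches are printed above, SDHA (0.38, limma adjusted p = 0.0309) and ATP5F1C were called higher as deposited. SDHD, COX8A and UQCRQ were not. None of the 5 was called higher after loess, and only ATP5F1C was after quantile normalization (0.35, limma adjusted p = 0.0119).

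Of the pseudogenes and noncoding RNAs matched by symbol, ATP5MC2P1 lay between 7.62 and 8.25, COX6A1P1 between 7.72 and 8.37, NDUFB2-AS1 between 6.91 and 7.81, NDUFV1-DT between 8.78 and 9.51 and both probe sets of NDUFV2-AS1 between 6.43 and 7.60.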

How the data were processed

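RNA of 8 HepG2 cultures was measured on Affymetrix arrays. The deposited values are log2 signals of 54675 probe sets. The submitters' processing notes name RMA. Which version and settings were applied is not given in the sources used here. Deposited arrays did not share 1 distribution. Signals before RMA were not used. Precision is limited by having 8 arrays.

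Probe sets were named through the platform annotation with symbols updated by Entrez identifier: 41091 had 1 symbol, 1801 several (not named), 11721 no entry, and 62 were controls. Each symbol was read from the probe set with the highest mean, and 13298 of 19775 symbols passed a filter at the median probe set mean. Some subunits are not reported here. limma 3.58.1 in R 4.3.3 (lmFit, eBayes with trend, Benjamini-Hochberg over all genes tested, threshold 0.05) fitted time and treatment, with 3 residual degrees of freedom. A second model added late against early times. Tables and figures were made with Python (pandas, matplotlib).

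The genes, lists and tests were chosen with earlier results of these data known. Genes were named by rule: the widest quercetin differences over all times and at each time, the widest called changes over time, the brightest and dimmest gene per complex (not given, since signals of different probe sets are not comparable), tissue isoforms, and SDH genes, with regulators beside them. Genes called or lost under other scalings, and the COX5B probe set, were named after their values were seen. Alternatives were other filters, probe set choices, scalings (median centring, cyclic loess, quantile normalization), moderation, array weights, models and arrays left out. The contrast of 24 h with 4 h and the alternatives for 4 h and 12 h against 2 h were added after seeing the data.

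On simulated data, with known shifts in 200 of 13298 genes, the code was tested as well. For quercetin, 70% of shifts of 0.5 and 100% of shifts of 1 were recovered. The shares were 33% and 99% for 24 h against 2 h, 27% and 97% for 24 h against 4 h, and 11% and 67% for late against early. False calls were 5.03% of all calls for quercetin and 7.04% for 24 h against 2 h. They were 7.46% for 24 h against 4 h and 7.14% for late against early. Each lies above the threshold of 0.05. These shares describe the simulated data. They do not measure power or error in the real arrays, where calls for time changed with the scaling.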

Additional observations from a re-analysis of the deposited data

How the results depend on the processing

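Counts with every probe set are of probe sets rather than genes. The quercetin comparison called 0 respiratory chain genes under every alternative run. Over all genes it called 1 with gene-specific probe sets, every probe set or array weights, and 0 to 1 with a time pair left out. For 24 h against 2 h, averaging a gene's probe sets gave 1525 genes in all. Respiratory chain calls were 4 of 72 with that average and 2 of 72 without a variance trend, beside 13.6% and 18.5% of all genes. With every probe set they were 13 of 116, beside 17.8% of all probe sets. Leaving out arrays gave 952 to 3230 genes and 1 to 18 respiratory chain genes. Of 72, 2 were called without quercetin 2 h (7.16% of all genes), 1 without control 24 h (7.95%) and 4 without quercetin 24 h (11.8%). There were 17 without control 12 h and 18 without quercetin 12 h, with 1 downward in each case. These are 23.6% and 25% of the 72, beside 24.3% of all genes in both. For 24 h against 4 h, 32 of 72 respiratory chain genes were called with averaged probe sets (33.5% of all genes). With gene-specific probe sets 50 of them were tested and 27 called (39.8% of all genes). Of 72, 16 were called after loess (32.4%), 16 after quantile normalization (31.2%) and 34 without trend (40.3%). Leaving out arrays gave 3103 to 5907 genes and 23 to 58 respiratory chain genes. The 23 came without control 24 h (24.1% of all genes) and the 58 without control or quercetin 12 h (44.1% in each). The F-test gave 2874 genes with averaged probe sets (25.6% of all genes), and 18 of 72 respiratory chain genes. With gene-specific probe sets it called 24 of 50 respiratory chain genes (35.2% of all genes). Of 72, 14 were called after loess (28.9%), 14 after quantile normalization (28.0%) and 15 without trend (32.5%). Leaving out arrays gave 2539 genes (without control 24 h) to 5559 and 12 to 55 respiratory chain genes. There were 17 without control 4 h (25.6% of all genes) and 19 without quercetin 4 h (30.6%). There were 12 without control 24 h (19.1%) and 24 without quercetin 24 h (25.9%). The 55 came without quercetin 12 h (40.2%). For 4 h against 2 h, 39 genes in all were called without a filter, 0 with averaged probe sets, 6 with every probe set, 9 after loess, 22 after quantile normalization, 4 without trend, 141 with robust moderation and 45 without the treatment term. The respiratory chain count was 0 in each of these except robust moderation (1). Leaving out arrays gave 2 to 862 genes and 0 to 26 respiratory chain genes. For 12 h against 2 h, averaged probe sets gave 65 genes, gene-specific probe sets 257, no trend 161 and array weights 219. The respiratory chain count was 0 in these, without a filter, with every probe set and after centring, loess or quantile normalization. Leaving out arrays gave 52 to 607 genes and 0 to 3 respiratory chain genes. A lone array left at a time is assumed to vary like the others.

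Late against early called 15 genes without a filter, 1 with averaged probe sets, 32 with gene-specific probe sets, 135 with every probe set, 30 after median centring, and 0 after loess, quantile normalization or without trend. Without the 2, 4, 12 or 24 h pair it called 8, 28, 29 or 162 genes, a range of 8 to 162. The respiratory chain count was 1 of 50 (COX5B) with gene-specific probe sets (0.324% of all genes). With every probe set it was 1 of 116 (0.604% of all probe sets). The median quercetin difference of respiratory chain genes at 2 h was -0.104 after centring, 0.115 after loess and 0.074 after quantile normalization. At 12 h it was -0.006 with gene-specific probe sets, -0.078 after loess and -0.109 after quantile normalization, and at 24 h -0.009 after loess. The median 24 h minus 2 h difference in quercetin cells was 0.207 after centring, -0.100 after loess and -0.059 after quantile normalization, and in control cells 0.016 and -0.014 after loess and quantile normalization. The median 24 h minus 4 h difference was 0.307 in quercetin and 0.348 in control cells with averaged probe sets and 0.344 and 0.386 with gene-specific probe sets. It was 0.487 and 0.578 after centring, -0.046 and -0.027 after loess, and -0.034 and 0.016 after quantile normalization. With gene-specific probe sets, SDHC and ATP5F1C turned to -0.339 and -0.272 from 2 to 24 h. The causes were not tested.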

Other observations

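Other mitochondrial gene groups were read in the same way, from 4 to 24 h, beside 32.8% of all genes up and 9.45% down as deposited, 17.2% and 15.2% after loess, and 15.6% and 15.5% after quantile normalization. Of 75 mitochondrial ribosomal protein genes tested, 40 rose and 0 fell as deposited (median 0.42), 11 rose and 10 fell after loess, and 10 rose and 16 fell after quantile normalization. Of 15 tricarboxylic acid cycle genes, 11 rose and 0 fell (median 0.60), and 4 rose and 0 fell after loess. IDH3A, a catalytic subunit of isocitrate dehydrogenase, had 9.80 with quercetin and 10.20 in control at 24 h and 9.01 in both at 4 h, and rose by 0.99 ± 0.20 (SE, limma adjusted p = 0.000533). Citrate synthase, CS, differed by 0.24 and was not called.

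Of 47 assembly factors, 23 rose and 2 fell (median 0.42), with 7 and 5 after loess and 4 and 5 after quantile normalization. Of 21 protein import genes, 5 rose and 2 fell (median 0.17), with 1 and 7 after loess and 1 and 8 after quantile normalization. No gene of these 4 lists was called for quercetin against control (limma, 0 of 158 tested). The tricarboxylic acid cycle list was the one of the 4 with no fall called under loess or quantile normalization, where 3 rose.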
